A study of Ovis aries with 12 samples.

Results

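The comparison described here set corpora lutea of pregnant ewes against those of non-pregnant ewes on day 12, before the time at which the gland of a non-pregnant ewe regresses. Its members were chosen by the tissue source label of each array, and 6 of the 12 arrays of the study belonged to it, 3 from day 12 pregnant ewes and 3 from day 12 non-pregnant ewes. The other 6 arrays were glands of 3 pregnant and 3 non-pregnant ewes on day 14. Each array was hybridised with total RNA of a whole gland from 1 ewe (Ovis aries), extracted with Trizol from tissue snap frozen in liquid nitrogen. The pregnant group came from ewes bred to a fertile ram. The non-pregnant group was left unbred, and a vasectomized ram was used to date the cycle. The sources used here give neither breed nor age nor hormone levels. The array is a bovine one, and a sheep transcript can read low on it because its bases mismatch the probes as well as because it is scarce. The sample titles all named day 12 pregnant ewes, which conflicted with the source label for 9 of the 12 arrays, and the source label was followed throughout.

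After ovulation the follicle turns into the corpus luteum, an ovarian gland that makes progesterone, the hormone that keeps the uterus able to carry a conceptus. In a cycling ewe, pulses of prostaglandin F2 alpha from the uterus end progesterone synthesis and break the gland down, a process called luteolysis. The elongating conceptus secretes interferon tau, a type I interferon that restrains those pulses and induces interferon-stimulated genes in the uterus and in tissues reached through the blood. The comparison therefore asked whether the presence of a young conceptus could already be seen in the transcripts of the gland on day 12.

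Luteal markers read at similar levels in both groups. STAR, which brings cholesterol into mitochondria, lay at log2 values of 12.98, 12.91 and 13.18 in the pregnant ewes and 13.06, 13.03 and 13.06 in the non-pregnant ewes. OXT, the oxytocin precursor made by large luteal cells, lay between 12.99 and 13.24 in all 6 glands. Averaged over 11 luteal steroidogenic markers, pregnant glands lay at 9.94 to 10.0 and non-pregnant glands at 9.88 to 9.99. All levels here are log2 values after robust multi-array averaging (RMA), which gives no call of presence or absence, and a level of one probe set cannot be set against that of another.

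The 6 arrays were close to each other over all 24016 probe sets. Pearson correlations were 0.9921 to 0.994 among pregnant ewes, 0.994 to 0.9946 among non-pregnant ewes and 0.9915 to 0.9942 across the 9 pairs of a pregnant and a non-pregnant ewe. The ranges thus overlapped. On day 14 the pairs across groups (0.9835 to 0.9895) lay below those within the pregnant group (0.9929 to 0.9941) and on both sides of those within the non-pregnant group (0.987 to 0.9883). In their description labels 1 pregnant day 12 array carried the name Gene Array, shared by 4 arrays of the study, and the other 5 day 12 arrays carried the name Genome Array, shared by 8. This array set was a term of the model, and values within the larger set are given beside some of the results. The 3′ probe sets of the actin and GAPDH controls exceeded their 5′ probe sets by 1.57 to 1.60 log2 units in pregnant glands and by 1.42 to 1.47 in non-pregnant glands, so this sign of RNA quality moved with the comparison (difference 0.129, two-sided exact permutation p = 0.1, the smallest value that 3 against 3 allows). GAPDH differed by 0.223 (exact permutation p = 0.1) and actin by 0.0353 (exact permutation p = 0.7).

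No transcript passed the test on day 12. Differences are pregnant minus non-pregnant on the log2 scale, so that 1 stands for a doubling, and each is given with its standard error from the limma fit to all 12 arrays. Of 24016 probe sets, 0 (0%) had a Benjamini-Hochberg adjusted p under 0.05 and 0 had one under 0.1. The smallest adjusted p was 0.162 in limma's moderated test. At an unadjusted p under 0.05 there were 1847 probe sets (7.69%), 831 higher (3.46%) and 1016 lower (4.23%) in the pregnant ewes. The same fit called 348 probe sets (1.45%) on day 14, with 129 higher and 219 lower in pregnant ewes.

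The size of the differences was small as well as their support. A fitted difference of at least 1 log2 unit was reached by 7 probe sets upward and 15 downward on day 12, against 73 and 180 on day 14. The median absolute difference was 0.102 on day 12 and 0.125 on day 14. The 95% confidence interval on day 12 reached a median of 0.274 to either side of the estimate, and for 97.4% of probe sets the whole interval lay within 1 log2 unit of 0. These intervals are not adjusted for the number of probe sets tested.

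**Figure D1:**
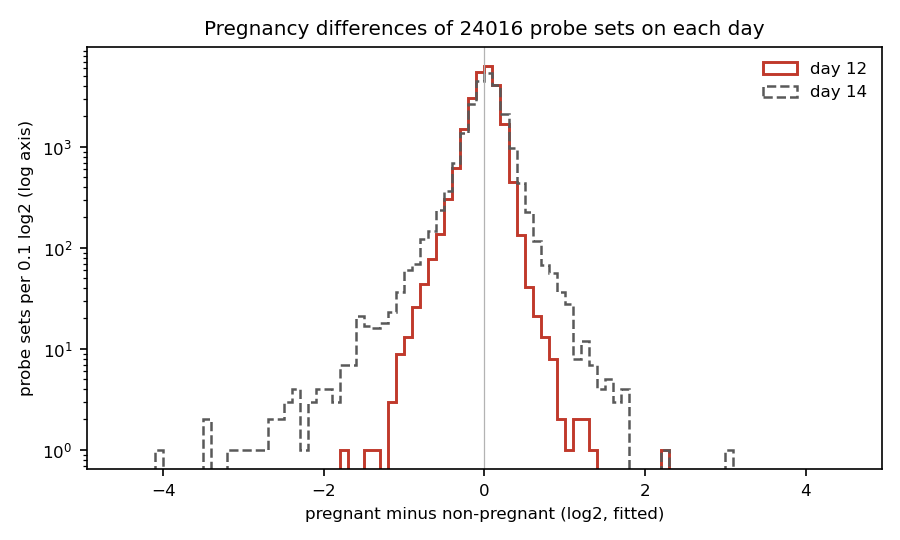
Histogram of the fitted pregnant minus non-pregnant difference (log2, bins of 0.1) of 24016 probe sets, with the number of probe sets on a log axis, for day 12 (red line) and day 14 (grey dashed line). The day 12 distribution is narrower: 7 and 15 probe sets lie past 1 and -1 on day 12, and 73 and 180 on day 14.

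Among named genes, the smallest p in the upward direction belonged to EMG1, a methyltransferase of ribosome assembly. Its log2 values were 8.54, 8.64 and 8.02 in the pregnant ewes and 7.62, 7.84 and 7.69 in the non-pregnant ewes. All 3 pregnant glands lay above all 3 non-pregnant glands, with a difference of 0.78 ± 0.12 (limma adjusted p = 0.162). ADH6, an alcohol dehydrogenase, had the largest difference of the 12 genes named upward. It read 5.44, 5.85 and 5.46 in the pregnant and 4.77, 4.64 and 4.31 in the non-pregnant ewes, a difference of 1.13 ± 0.22 (limma adjusted p = 0.294). FMO2, a flavin-containing monooxygenase, read 4.40, 4.58 and 4.59 against 3.66, 3.79 and 3.78, a difference of 0.87 ± 0.17 (limma adjusted p = 0.294). CHCHD10, a protein of the mitochondrial intermembrane space, read 10.01, 10.01 and 9.55 against 9.14, 9.51 and 9.15. The lowest pregnant gland lay just above the highest non-pregnant gland, and the difference was 0.66 ± 0.15 (limma adjusted p = 0.325).

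The other 8 genes named upward had differences of 0.34 to 0.78 and limma adjusted p of 0.248 to 0.349. They were F10 (coagulation factor X), RHBG (an ammonium transporter), AHSG (fetuin A), NDOR1 (a diflavin reductase of iron-sulphur cluster assembly), CMTM3, PFDN2 (a prefoldin subunit), GLUD1 (glutamate dehydrogenase) and GDF7 (a BMP-family ligand). For 4 of these the brightest probe set of the same gene did not follow: it gave -0.09 for AHSG, -0.27 for CMTM3, 0.04 for GLUD1 and 0.0019 for GDF7. AHSG was measured by 8 probe sets, 6 of them above 0, and the one that ranked it lay among the dimmest 25% of probe sets, at mean levels under 3.59.

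The smallest p of all downward belonged to CD164, a sialomucin of lysosomes and the cell surface. It read 7.73, 7.61 and 7.71 in the pregnant and 8.25, 8.31 and 8.27 in the non-pregnant ewes. The difference was -0.62 ± 0.092 (limma adjusted p = 0.162), and the highest pregnant gland lay well below the lowest non-pregnant one. CD164 was also lower in pregnant ewes on day 14, where it passed the test (-0.77, limma adjusted p = 0.00288). SRSF1, a splicing factor of the SR family, read 7.93, 8.22 and 8.12 against 8.92, 8.85 and 8.78, a difference of -0.74 ± 0.11 (limma adjusted p = 0.162). All 3 probe sets of SRSF1 lay below 0, and the brightest gave -0.44 ± 0.16.

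Among the 12 genes named in each direction, PNISR had the broadest support from separate probe sets. PNISR is a nuclear serine and arginine rich protein that interacts with splicing factors. The ranking probe set read 5.66, 5.93 and 6.17 in the pregnant and 6.69, 6.78 and 6.77 in the non-pregnant ewes (difference -0.84 ± 0.15, limma adjusted p = 0.248). All 5 of its probe sets lay below 0, with differences from -0.84 to -0.29, and each had an unadjusted p under 0.05. ATAD1, an ATPase that removes misplaced proteins from mitochondria, read 6.68, 6.80 and 6.63 against 7.46, 7.50 and 7.31 (difference -0.68 ± 0.11, limma adjusted p = 0.162). TDRD3, a reader of methylated arginines, read 4.21, 4.28 and 4.22 against 4.92, 4.94 and 4.91. Its groups were tight and far apart, but the brightest of its 3 probe sets gave -0.02.

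The remaining 7 genes named downward had differences of -0.92 to -0.49 and limma adjusted p of 0.248 to 0.286. They were CCPG1 (a receptor for degradation of endoplasmic reticulum), PPP4R3A (a phosphatase subunit), ATP6V1A (the catalytic subunit of the vacuolar proton pump), CAPN7 (a calpain), BIRC6 (a ubiquitin ligase that restrains cell death), TAF1B (a factor of RNA polymerase I) and ZZZ3 (a histone reader). The brightest probe set gave smaller values for ATP6V1A (-0.07), BIRC6 (-0.04) and ZZZ3 (-0.13), while TAF1B gave -0.78.

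**Figure D2:**
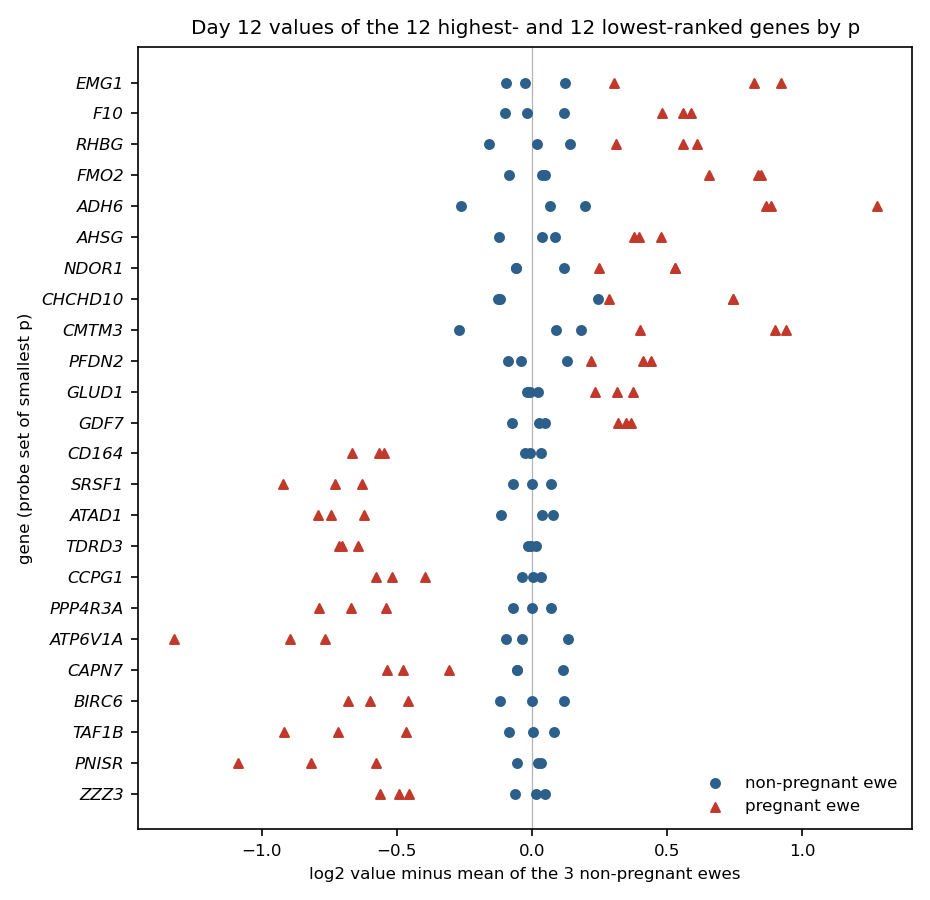
Log2 value of each day 12 gland minus the mean of the 3 non-pregnant glands, for the 12 genes of smallest p in each direction (pregnant ewes as red triangles, non-pregnant ewes as blue circles). The groups are separate in all 24 genes, which ranking by p favours. The nearest pregnant and non-pregnant glands lie close together in CHCHD10, PFDN2, NDOR1, RHBG and EMG1.

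Among probe sets with 1 named gene, 7 reached a fitted difference of 1 log2 unit with groups that did not overlap. The plain difference of group means, without the array-set term, reached that size only in ADH6 (1.01) and PRSS35 (-1.106). It was 0.93 for EHD3, 0.938 for LRFN5, -0.9999 for A2M, -0.943 for PDK4 and -0.599 for VCAN. EHD3, a protein of endocytic recycling, read 8.84, 8.56 and 8.44 in pregnant and 7.48, 7.86 and 7.70 in non-pregnant ewes, a difference of 1.17 ± 0.31 (limma adjusted p = 0.430). Its second probe set gave 0.59 ± 0.15. LRFN5, a cell adhesion protein best known from synapses, gave 1.01 ± 0.26. In the other direction A2M, a broad protease inhibitor, read 7.0, 7.37 and 7.18 against 8.45, 7.76 and 8.34 (-1.09 ± 0.24, limma adjusted p = 0.325). PDK4, the kinase that holds pyruvate dehydrogenase inactive, read 9.38, 8.45 and 9.27 against 9.88, 9.94 and 10.11 (-1.07 ± 0.49). PRSS35, a protease-like protein expressed in the ovary, gave -1.06 ± 0.23, and VCAN, the matrix proteoglycan versican, gave -1.03 ± 0.28 (-0.75 within the larger array set). All 3 VCAN probe sets lay below 0. The brightest of them was not the one given here, and gave -0.95 to -0.36 over the alternative settings that left out no single array.

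Groups that did not overlap, that is with all 3 pregnant glands on one side of all 3 non-pregnant glands, were found for 3946 probe sets (16.4%), 2056 higher (8.56%) and 1890 lower (7.87%). Counting each of 9155 genes once, by its brightest probe set, gave 1037 higher (11.3%) and 661 lower (7.22%). Of these 9155 genes 56.6% lay above 0, and the median difference was 0.03. At an unadjusted p under 0.05, 4.72% of genes were higher and 3.94% lower. These shares are the background for every gene list below. Of 2913 genes with several probe sets, 35 had all of them higher without overlap and 52 had all of them lower. The higher set held EHD3, UQCRC1, CALM3, MBOAT1, SLC25A20 and SREBF2. The lower set held PNISR, DYNLT3, PKD2, IFRD1, COLEC11, LUC7L3, DDX17 and SREK1. These examples were chosen after their values were seen.

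Interferon-stimulated genes, the known response of tissues to interferon tau, gave 0 calls among 38 measured genes on day 12. Of the 38 genes 16 lay above 0, 2 were higher and 4 lower without overlap, and the median difference was -0.08 against 0.03 over all genes. On day 14 the same list had a median of 0.55, with 12 genes called higher in pregnant ewes. The list averaged 6.64 to 6.71 in the day 12 pregnant glands and 6.69, 6.94 and 6.57 in the non-pregnant ones. The second non-pregnant gland was the highest of the 6, and without it the list's median difference was 0.06.

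MX1, a dynamin-like GTPase against viruses and a common blood marker of early pregnancy in ruminants, had the largest difference above 0 in the list. It read 5.78, 6.16 and 6.21 in the pregnant ewes and 5.25, 5.71 and 5.49 in the non-pregnant ewes. The groups did not overlap, and the difference was 0.65 ± 0.24 with a 95% confidence interval of 0.12 to 1.19 (limma unadjusted p = 0.0212, adjusted p = 0.588). Within the larger array set it was 0.48. ISG15, a ubiquitin-like modifier, read 8.0, 8.21 and 8.13 in the pregnant and 8.22, 9.62 and 7.60 in the non-pregnant ewes. The 3 pregnant glands were alike, the non-pregnant glands lay on both sides of them, and the difference was -0.20 ± 0.46. RSAD2 (viperin), USP18 (which removes ISG15 from proteins) and MX2 gave -0.25 ± 0.31, -0.10 ± 0.21 and 0.07 ± 0.19. Their intervals reached up to 0.44, 0.36 and 0.49.

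CXCL10, a chemokine that draws T cells, read 5.23, 4.85 and 5.34 in pregnant and 5.52, 5.72 and 5.73 in non-pregnant ewes (-0.58 ± 0.24, limma adjusted p = 0.611). IFIT5, a sensor of viral RNA, gave -0.25 ± 0.10 and TRIM21, an antibody receptor in the cytosol, gave 0.23 ± 0.10. In the signalling list 3 of 9 genes lay above 0, with 0 higher and 1 lower without overlap. That gene was IRF9, the DNA-binding part of the interferon-activated complex (-0.21 ± 0.13). Its partner STAT2 gave -0.13 ± 0.11.

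**Figure D3:**
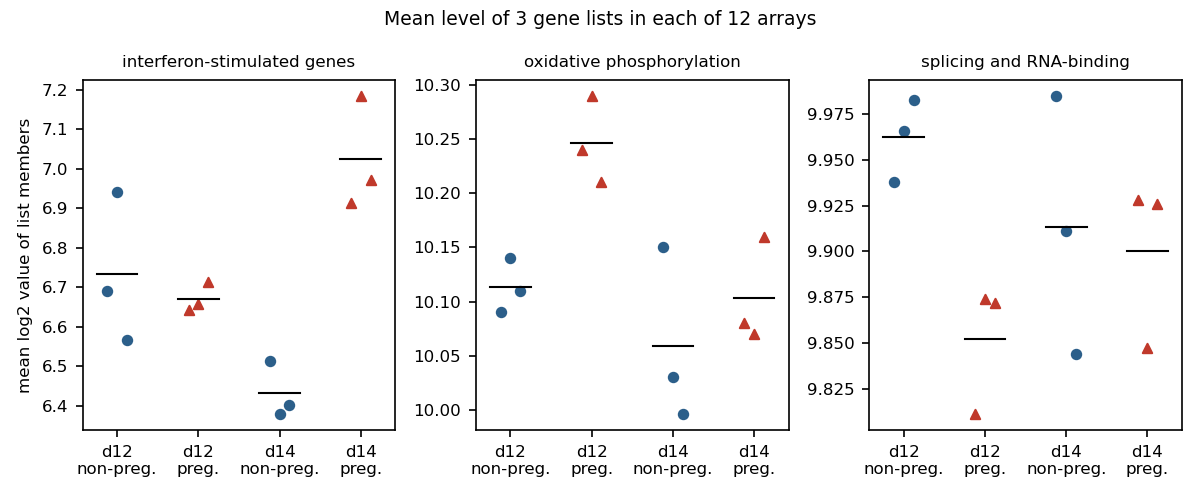
Mean log2 level of the measured members of 3 gene lists in each of the 12 arrays (blue circles non-pregnant, red triangles pregnant, horizontal bars group means; each panel has its own axis, which does not start at 0). On day 12 interferon-stimulated genes overlap between groups, oxidative phosphorylation genes are at 10.21 to 10.29 in pregnant and 10.09 to 10.14 in non-pregnant glands, and splicing genes at 9.81 to 9.87 and 9.94 to 9.98.

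The list with the largest share of genes on one side was oxidative phosphorylation, the respiratory chain and ATP synthase of mitochondria. Of 49 measured genes 44 lay above 0, 28 were higher without overlap and 1 was lower, against 11.3% and 7.22% of all genes. In the brightest 25% of genes, where 44 of the 49 members lay, the shares were 14.5% higher and 9.39% lower. The median difference was 0.16, the members ranged from -0.15 to 0.32, and 0 genes passed the test. At an unadjusted p under 0.05, 13 were higher and 0 lower. The within-set median was 0.17, and leaving out each array in turn gave 0.13 to 0.19. On day 14 the median was 0.03.

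In each of the 5 complexes most members lay above 0. NADH dehydrogenase subunits lay above 0 in 25 of 26 genes, with 14 higher without overlap and a median of 0.17. Succinate dehydrogenase had 3 of 4 above 0, the cytochrome bc1 complex 5 of 6, cytochrome oxidase 7 of 8 and ATP synthase 4 of 5. NDUFS8, a subunit that carries iron-sulphur clusters, read 9.09, 9.18 and 9.05 in pregnant and 8.85, 8.90 and 8.73 in non-pregnant ewes (0.29 ± 0.11, limma adjusted p = 0.586). COX5B, a subunit of cytochrome oxidase, read 11.34, 11.40 and 11.31 against 11.16, 11.18 and 11.08 (0.22 ± 0.086, limma adjusted p = 0.592). NDUFS3 and SDHB gave 0.31 ± 0.11 and 0.24 ± 0.089. ATP5F1A, the alpha subunit of ATP synthase, was the 1 member lower without overlap, at -0.06.

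Splicing factors and RNA-binding proteins leaned the other way. Of 29 measured genes 7 lay above 0, 1 was higher without overlap and 11 were lower, and the median was -0.08. Among the brightest genes (levels of 8.072 to 14.18), which held 27 of the 29, 14.5% were higher without overlap and 9.39% lower. Among SR and TRA2 proteins, which mark exons for splicing, 1 of 10 lay above 0, 5 were lower without overlap and the median was -0.19. TRA2A read 9.19, 9.26 and 9.57 in pregnant and 9.77, 9.84 and 9.62 in non-pregnant ewes (-0.48 ± 0.11, limma adjusted p = 0.331). SF3B1, the branch-site subunit of the U2 particle, read 10.76, 10.79 and 10.93 against 11.14, 11.17 and 11.16 (-0.34 ± 0.093, limma adjusted p = 0.439), and all 4 of its probe sets lay below 0. HNRNPH1 gave -0.27 ± 0.094. The hnRNP proteins as a group had 2 of 7 above 0 and a median of -0.04. The list's median was -0.12 within the larger array set and -0.03 when the 3′ minus 5′ difference was a covariate.

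Ribosomal proteins had 39 of 59 genes above 0, 20 higher without overlap and 2 lower, but a median of 0.02, close to that of all genes. The brightest genes (levels of 8.072 to 14.18), with 57 of the 59 among them, were higher without overlap in 14.5% and lower in 9.39%. RPS15, a protein of the small subunit, read 12.84, 12.80 and 12.83 against 12.63, 12.65 and 12.64 (0.17 ± 0.082). RPS19 and RPL28 gave 0.27 ± 0.15 and 0.17 ± 0.097, and RPL7 gave -0.16 ± 0.094.

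A trend with gene length ran over all genes. For 8498 genes (92.8%) whose span could be read from the sheep annotation, Spearman's rho across genes between the span and the day 12 difference was -0.23, within the larger array set -0.25, and on day 14 -0.02. Genes are not independent replicates, and all share the same 6 arrays. The median difference was 0.07 in the shortest 25% of genes and -0.03 in the longest 25%, and 17.3% and 5.98% were higher without overlap. Of the 59 ribosomal protein genes 55 fell in the shortest 25%. For oxidative phosphorylation the span could be matched in fewer than 80% of members, so a comparison by span is void for that list. The part of gene length in the shifts of the oxidative phosphorylation, splicing and ribosomal protein lists was not tested. With the 3′ minus 5′ difference as a covariate their medians were 0.19, -0.03 and 0.09, against 0.0223 for the ribosomal proteins without it.

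**Figure D4:**
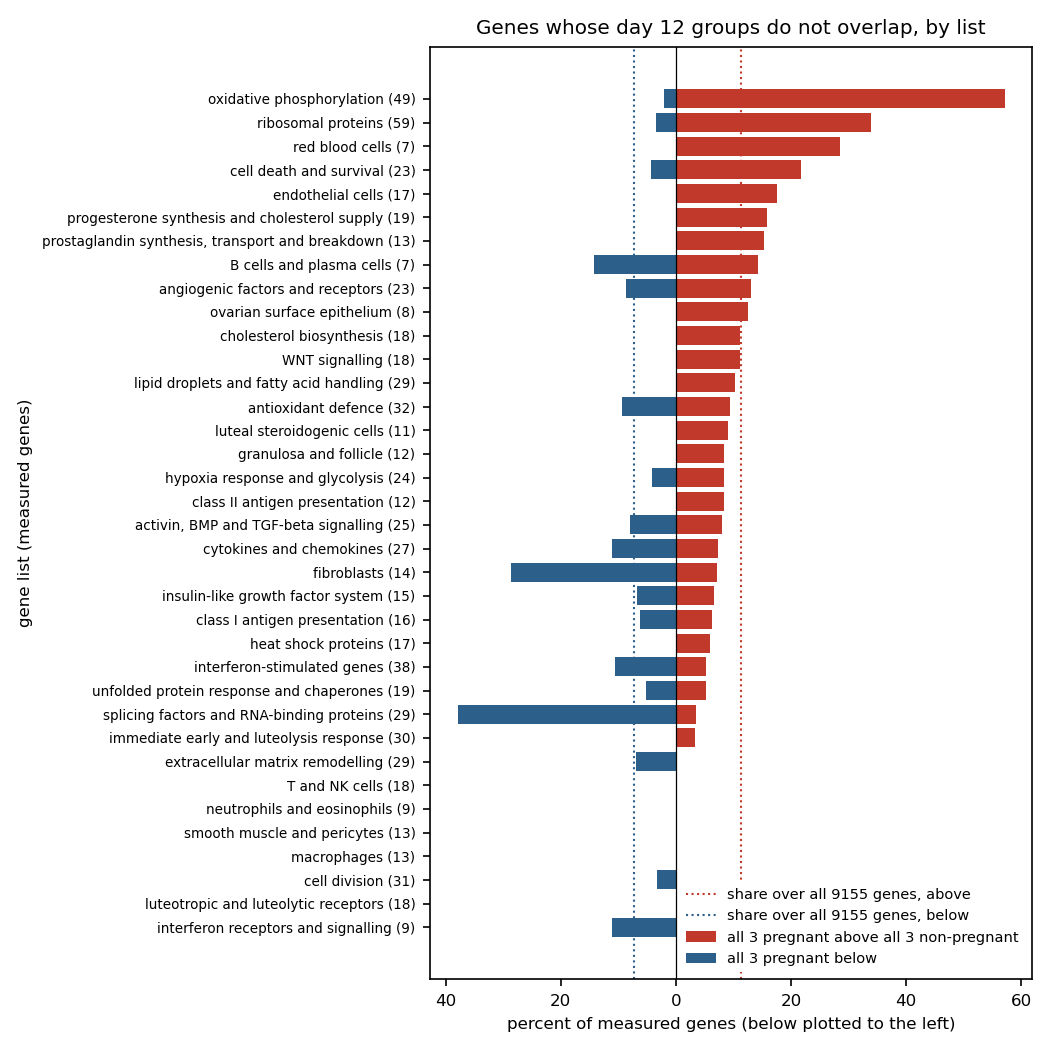
Percent of each list's measured genes (number in brackets) whose 3 pregnant glands all lay above (red, to the right) or all below (blue, to the left) the 3 non-pregnant glands on day 12, with dotted lines at the shares over all 9155 genes, 11.3% and 7.22%. Oxidative phosphorylation and ribosomal proteins extend farthest to the right among lists of over 20 genes, and splicing factors farthest to the left.

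Genes of progesterone synthesis and cholesterol supply lay above 0 in 16 of 19 cases, with 3 higher and 0 lower without overlap and a median of 0.11. The within-set median was 0.07. Genes of the steroidogenic core gave small differences. STAR gave 0.0012 ± 0.13 with a 95% confidence interval of -0.29 to 0.29. CYP11A1, the side-chain cleavage enzyme, gave 0.15 ± 0.11, HSD3B1, which completes progesterone synthesis, gave 0.12 ± 0.14, and NR5A2, a nuclear receptor of steroidogenic cells, gave 0.16 ± 0.12. Within the larger array set CYP11A1 gave 0.07, HSD3B1 0.03 and STAR -0.10, and without the array-set term STAR and HSD3B1 gave -0.02 and -0.0043. On day 14 STAR and NR5A2 passed the test in the same fit, at 0.74 (limma adjusted p = 0.0245) and 1.16 (limma adjusted p = 0.00148).

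SCARB1, the receptor that takes up cholesterol from high-density lipoprotein, had the smallest p of the list. It read 11.06, 10.92 and 10.99 in pregnant and 10.68, 10.58 and 10.66 in non-pregnant ewes, a difference of 0.44 ± 0.13 (limma adjusted p = 0.513). HSD11B1, NR0B1 and LIPE, a hormone-sensitive lipase, gave 0.19 ± 0.11, 0.24 ± 0.11 and 0.33 ± 0.16. In cholesterol biosynthesis 13 of 18 genes lay above 0 and the median was 0.18, with 2 higher and 0 lower without overlap. The list averaged 9.14, 8.62 and 8.64 in the pregnant and 8.97, 8.78 and 8.59 in the non-pregnant glands, so the first pregnant gland was highest and the groups overlapped. Without that gland the median was 0.06, without the third non-pregnant gland 0.07 and without the second pregnant gland 0.38, and with no array-set term it was 0.09. SREBF2, the transcription factor that controls the pathway, read 8.38, 8.19 and 8.14 against 7.98, 8.0 and 7.96 (0.32 ± 0.12, limma adjusted p = 0.586). SCAP, which escorts it to the Golgi, gave 0.33 ± 0.16, and all 4 SCAP probe sets lay above 0. TM7SF2 and MVK, enzymes of the pathway, gave 0.38 ± 0.20 and 0.35 ± 0.22.

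Receptors through which the gland is maintained or broken down showed no separation. Of 18 measured genes 8 lay above 0, 0 were higher and 0 lower without overlap, and the median was -0.02. LHCGR, the receptor for luteinizing hormone, read 7.73, 8.45 and 7.92 in pregnant and 8.40, 8.67 and 8.45 in non-pregnant ewes (-0.37 ± 0.21). PTGFR, the receptor for prostaglandin F2 alpha, read 11.55, 11.47 and 11.83 against 11.25, 11.38 and 11.74 (0.26 ± 0.22, with a 95% confidence interval of -0.22 to 0.74, and 0.06 within the larger array set). AVPR1A, a vasopressin receptor, gave 0.72 ± 0.40, IGF1R 0.31 ± 0.17 and the oestrogen receptor ESR1 -0.17 ± 0.13. With the 3′ minus 5′ covariate AVPR1A and IGF1R gave -0.26 and -0.04. The ligands OXT and PTHLH gave 0.11 ± 0.11 and -0.35 ± 0.46, and the cytokine LIF gave 0.11 ± 0.10.

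Prostaglandin genes were split, with 6 of 13 above 0, 2 higher without overlap, 0 lower and a median of -0.0096. SLCO2A1, the transporter that takes up prostaglandins, read 6.86, 6.32 and 6.57 in pregnant and 6.27, 6.21 and 6.18 in non-pregnant ewes (0.49 ± 0.19, limma adjusted p = 0.592). PRXL2B, a prostamide synthase, gave 0.21 ± 0.11, PTGES, a prostaglandin E synthase, 0.51 ± 0.33 and AKR1C3 -0.17 ± 0.12. With the 3′ minus 5′ covariate PTGES gave -0.05. PTGS2, the inducible cyclooxygenase, gave -0.03 ± 0.32. HPGD, which breaks prostaglandins down, gave -0.33 ± 0.31. The receptors for prostaglandin E2 gave -0.06 ± 0.19 for PTGER2, which lay among the dimmest 25%, and -0.27 ± 0.28 for PTGER4.

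Genes of blood vessel growth had 10 of 23 above 0, 3 higher and 2 lower without overlap. TIE1, an endothelial receptor of the angiopoietin system, read 7.34, 7.17 and 7.44 in pregnant and 6.92, 6.97 and 6.85 in non-pregnant ewes (0.35 ± 0.088, limma adjusted p = 0.382). ANGPT2, the ligand that loosens vessels, read 7.92, 7.52 and 7.25 against 7.27, 6.53 and 7.19 (0.69 ± 0.24, limma adjusted p = 0.575), and here the groups overlapped. KDR, the main VEGF receptor, gave 0.22 ± 0.11, its co-receptor NRP1 -0.28 ± 0.12 and VEGFA -0.0068 ± 0.24. Of 17 endothelial markers 12 lay above 0, with 3 higher and 0 lower without overlap and a median of 0.11 (within the larger array set 0.04). CD34 read 8.36, 8.22 and 8.40 against 7.94, 7.97 and 7.91 (0.48 ± 0.16, limma adjusted p = 0.551), while EMCN gave -0.29 ± 0.15. The mean of the endothelial list was 6.68 to 6.88 in pregnant and 6.70 to 6.76 in non-pregnant glands. In RNA of whole glands fewer cells of a type and less RNA per cell cannot be told apart.

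Fibroblast markers lay mostly below 0. Of 14 fibroblast markers 3 lay above 0, 1 was higher and 4 were lower without overlap, and the median was -0.19. With the 3′ minus 5′ difference as a covariate this median was -0.03. THY1 read 6.53, 6.52 and 6.52 in pregnant and 6.92, 6.92 and 6.98 in non-pregnant ewes (-0.39 ± 0.15, limma adjusted p = 0.598). COL1A1, the main chain of type I collagen, read 10.71, 10.40 and 11.30 against 10.88, 10.88 and 11.38 (-0.51 ± 0.18), with overlapping groups. Over the alternative settings that left out no single array it gave -0.53 to -0.22. MFAP5, a microfibril protein, gave -0.69 ± 0.37 and DPT, dermatopontin, 0.45 ± 0.21. The list mean was 9.38 to 9.64 in pregnant and 9.58 to 9.65 in non-pregnant glands. Matrix remodelling genes had 13 of 29 above 0 and a median of -0.02 (0.02 within the larger array set), with 0 higher and 2 lower without overlap, where 7.22% of all genes were lower: the collagen cross-linker LOX (-0.38 ± 0.15) and fibronectin FN1 (-0.32 ± 0.13). The plasminogen activator PLAT gave -0.28 ± 0.19. Smooth muscle and pericyte markers had 6 of 13 above 0 and no gene without overlap, with TAGLN at -0.55 ± 0.21, ACTA2 at -0.41 ± 0.25, TPM2 at -0.34 ± 0.21 and MCAM at 0.13 ± 0.11.

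TGFB2, a transforming growth factor ligand, had the smallest p among 25 genes of activin, BMP and TGF-beta signalling. It read 7.18, 7.06 and 7.28 in pregnant and 7.55, 7.69 and 7.75 in non-pregnant ewes, a difference of -0.66 ± 0.17 (limma adjusted p = 0.410). Its receptor TGFBR1 gave 0.25 ± 0.10, BMPR1B -0.27 ± 0.16 and the activin inhibitor FSTL3 0.29 ± 0.17. Of the list 9 genes lay above 0, 2 were higher and 2 lower without overlap. In the insulin-like growth factor system IGFBP2, a binding protein of the ligands, read 7.21, 7.26 and 7.42 against 6.56, 6.44 and 6.80 (0.71 ± 0.18, limma adjusted p = 0.395). IGFBP3 gave 0.39 ± 0.22 and IGFBP6 -0.23 ± 0.10, and 7 of 15 genes lay above 0. Differences in this list ranged from -1.045 to 0.71, with 1 gene higher and 1 lower without overlap.

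Class I antigen presentation had 12 of 16 genes above 0, with 1 higher and 1 lower without overlap and a median of 0.07. The immunoproteasome subunits PSMB9 and PSMB10 gave 0.45 ± 0.14 and 0.38 ± 0.16, the proteasome activator PSME1 0.30 ± 0.12, and B2M, the light chain of class I molecules, -0.26 ± 0.095. PSMB9 read 9.96, 9.96 and 9.62 in pregnant and 9.60, 9.63 and 9.31 in non-pregnant ewes, where 1 pregnant gland overlapped the non-pregnant range. Immediate early genes and genes of the luteolytic response had 19 of 30 above 0 on day 12, 1 higher and 0 lower without overlap and a median of 0.07, against a median of -0.59 on day 14. The day 12 median was -0.19 with the 3′ minus 5′ covariate, and leaving out 1 array gave -0.01 (without the first day 12 non-pregnant gland) to 0.13. CXCL8, a neutrophil chemokine, gave -0.32 ± 0.12, TNF -0.18 ± 0.10 and CCL2, a monocyte chemokine, 0.42 ± 0.32, which was -0.03 with that covariate.

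The glands of both day 12 groups shared no array with those of day 14. Transcripts called on day 14 could therefore be followed back in plain differences of group means from the day 12 arrays alone. Over the 129 probe sets higher in day 14 pregnant ewes, 66 lay above 0 on day 12 (51.2%, against 52.9% of all probe sets). Their median of plain differences of group means was 0.0045 on day 12 and 0.71 on day 14. Of these 129 probe sets 12 were higher and 14 lower without overlap on day 12, which is near the background shares. Over the 219 probe sets lower in day 14 pregnant ewes, 68 lay above 0 on day 12 (31.1%), and the median was -0.08 on day 12 against -0.91 on day 14. Over all probe sets the day 12 median was 0.011. In that set of 219, 33 were lower and 8 higher without overlap, where 7.87% and 8.56% of all probe sets were. At an unadjusted p under 0.05, 36 were lower and 3 higher, where 4.23% and 3.46% of all probe sets were. These p came from the same fit to 12 arrays as the day 14 calls, with a shared spread and array-set term. The p counts are therefore no separate follow-up of those calls. The median of the probe sets lower on day 14 was -0.05 in the larger array set and -0.05 when each gene was counted once. Across all probe sets the plain differences of the 2 days had Pearson's r of 0.124 and Spearman's rho of 0.106, given across probe sets and without a test.

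The pregnancy difference itself differed between the days for 21 probe sets (0.0874% of 24016, limma adjusted p under 0.05), 15 with a higher and 6 with a lower value on day 12 than on day 14. In 9 of the 12 named genes among them the day 12 interval included 0 and the difference lay on day 14. CRYAB, a small heat shock protein, read 5.37 to 5.79 in day 12 pregnant and 5.66 to 5.83 in day 12 non-pregnant ewes, and 5.56 to 6.03 and 7.77 to 8.08 on day 14. F2RL1 and F2RL2, receptors cut by proteases, ABCC3 and ABCG8, transporters, CNN1, a smooth muscle protein, and CDH1, an epithelial adhesion protein, followed the same course. So did INSR, the insulin receptor, and ATP6V1E1, a proton pump subunit, but with pregnant glands higher without overlap on day 12, as in 8.56% of all probe sets. This was the direction opposite to day 14, and INSR lay among the dimmest 25%.

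For the other 3 genes the unadjusted day 12 interval did not include 0 and the day 14 value had the opposite sign, but none passed the test on day 12, and EMG1 did not pass on day 14 either (limma adjusted p = 0.135). PPM1K, a mitochondrial phosphatase of branched-chain amino acid breakdown, read 3.38, 3.52 and 3.79 in day 12 pregnant and 4.25, 4.43 and 4.04 in day 12 non-pregnant ewes. The day 12 difference was -0.75 ± 0.16, the day 14 difference was 0.95 and the contrast of the days was -1.70. TGFB2 gave -0.66 on day 12 and 0.98 on day 14, a contrast of -1.65. EMG1 gave 0.78 and -0.39, a contrast of 1.17. These calls depended on the arrays and the model used. Leaving out each of the 12 arrays in turn kept PPM1K past the threshold in 4 cases, TGFB2 in 3, EMG1 in 4 and CRYAB in 9. With no array-set term EMG1 gave 0.97 (limma adjusted p = 0.103) and TGFB2 -1.30 (limma adjusted p = 0.181), and TGFB2 passed in 2 and EMG1 in 4 of 7 other settings. PPM1K and CRYAB passed in all 7.

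**Figure D5:**
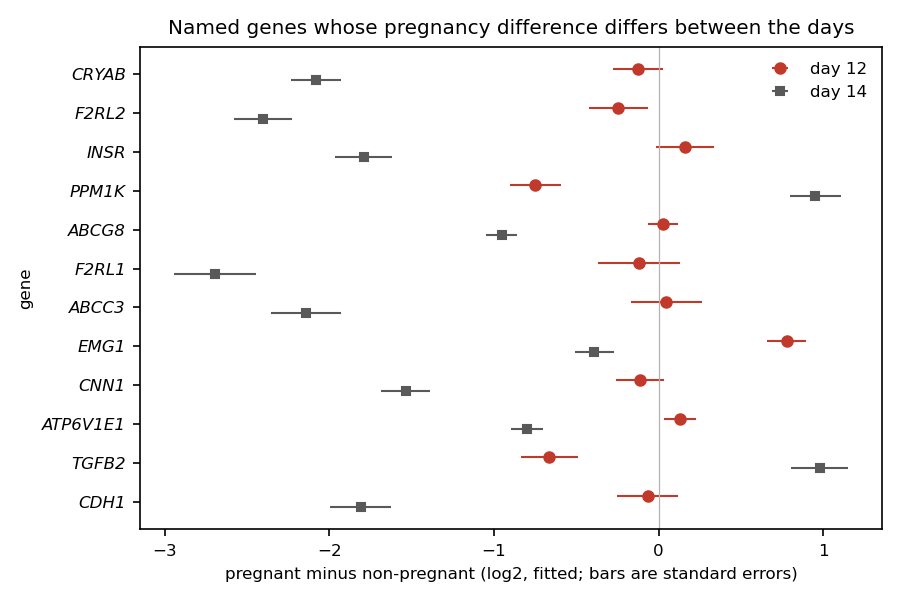
Fitted pregnant minus non-pregnant differences (log2, bars are standard errors) on day 12 (red circles) and day 14 (grey squares) for the 12 named genes whose difference differed between the days. For 9 genes the day 12 point lies near 0. PPM1K, TGFB2 and EMG1 lie farther from 0 on day 12 and on the opposite side of it on day 14.

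When the model used only the 6 day 12 arrays, with no array-set term and 4 residual degrees of freedom, it called 15 probe sets, 4 higher and 11 lower, of which 9 named a gene. CRABP1, a retinoic acid binding protein, read 10.94, 11.19 and 11.28 in pregnant and 9.86, 9.81 and 10.05 in non-pregnant ewes (1.23, limma adjusted p = 0.0225 in that fit). DYNLT3, a dynein light chain, read 6.74, 6.87 and 6.64 against 7.91, 7.81 and 7.71 (-1.06, limma adjusted p = 0.0225), and its 3 probe sets gave -0.99 to -0.29 in the fit to 12 arrays. SFPQ, a splicing protein of nuclear paraspeckles, gave -0.98. DR1, PKD2, ROCK2, TDRD3 and TMEM68 were lower and FMO2 higher, at limma adjusted p of 0.0456 to 0.0499. The probe set of smallest p had no gene name in the annotation used. It read 9.68, 9.87 and 9.89 in the pregnant and 11.58, 11.62 and 11.59 in the non-pregnant ewes (-1.78, limma adjusted p = 0.00068, and -1.71 with adjusted p = 0.286 in the fit to 12 arrays). None of these 15 passed in the fit to all 12 arrays.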

How the data were processed

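Per the labels' protocols RNA was labelled by a whole-transcript kit, and 12 bovine expression arrays were hybridised. The deposited values are log2 expression per probe set, for which the submitters' processing notes name RMA and Affymetrix Expression Console; the version is not given in the sources used here. No gene was filtered by the authors as far as the table shows: it held 24128 probe sets, of which 112 Affymetrix controls were left out here. Every value column matched 1 sample. The platform annotation named 1 gene for 13292 of the 24016 tested probe sets (9155 genes), several for 86 and none for 10638.

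Groups followed the source labels, and each group held 3 separate ewes, with no duplicates per the design text; its PCR samples were not analysed here. The fit was limma 3.58.1 (R 4.3.3) over 12 arrays, with 4 group means and the array name in the description as an additive term (7 residual and 4.39 prior degrees of freedom), a two-sided moderated test and Benjamini-Hochberg adjustment at 0.05. Precision was limited by 3 arrays a group. A gene entered a list by its brightest probe set with 1 gene name. Genes named were those past the threshold, filled where fewer passed to 12 a direction by smallest p (unnamed loci left out, 1 probe set a gene), up to 4 members of smallest p of each list described, and reference genes. The comparison, its lists and tests were chosen with earlier results of these data known. Gene spans came from the sheep assembly ARS-UI_Ramb_v3.0 and, like the comparison by gene level and the examples named as such, were added after seeing the data. Scripts were tested on simulated data. Alternatives were no array-set term, that term as a random block, the larger set only, only day 12 arrays, no day 14 non-pregnant arrays, no dimmest 25%, a mean-variance trend, a common median, the 3′ minus 5′ difference as a covariate and each array left out.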

Additional observations from a re-analysis of the deposited data

Results flagged for a closer look

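The pregnancy difference on day 12 differed from that on day 14 for 21 probe sets in limma's interaction test with Benjamini-Hochberg adjustment. The 12 with a gene name are given here as the day 12 minus the day 14 difference on the log2 scale, and none of these differences was weighed further. CRYAB, the small heat shock protein, gave 1.96 and passed the threshold in 9 of 12 fits that left out 1 array. The protease-activated receptors F2RL2 and F2RL1 gave 2.16 and 2.57 and passed in 7 and 4 of these fits. The transporters ABCC3 and ABCG8 gave 2.19 and 0.98, each passing in 5. INSR, the insulin receptor, gave 1.95 on a probe set among the dimmest 25% and passed in 5. CDH1 gave 1.74 and passed in 4, CNN1 gave 1.43 and passed in 2, and ATP6V1E1 gave 0.93 and passed in 3. EMG1 gave 1.17 and passed in 4. PPM1K and TGFB2 gave -1.70 and -1.65 and passed in 4 and 3. The unadjusted day 12 intervals were -1.09 to -0.41 for PPM1K, -1.04 to -0.29 for TGFB2 and 0.52 to 1.04 for EMG1. Their day 14 differences had the opposite sign. The fitted differences of INSR, ATP6V1E1, ABCC3 and ABCG8 also had opposite signs on the 2 days, but their day 12 intervals included 0.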

How the results depend on the processing

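No paired analysis was possible because each array came from a separate ewe. The replicate numbers used here only follow the order of the samples. The count of 0 day 12 calls was also 0 in every fit other than these: 15 with only the day 12 arrays, 5 without the first day 14 pregnant array (DYNLT3, PKD2, PPP1CB and 2 unnamed), and 1, unnamed, without the third day 14 pregnant array, so that leaving out 1 array gave 0 to 5. The interaction count of 21 was 50 with no array-set term, 50 with that term as a random block, 59 in the larger set only and 10 with the 3′ minus 5′ covariate, and leaving out 1 array gave 1 to 76 (1 without the third day 12 non-pregnant or the second day 12 pregnant array, 76 without the second day 14 non-pregnant array). The cause was not tested. The day 12 median of probe sets lower on day 14 was -0.0504 with each gene counted once and -0.0513 in the larger set, and -0.1001 to -0.0513 with 1 array left out.

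Single genes changed sign, among them AVPR1A, PTGES, CCL2 and IGF1R with fitted differences of 0.31 to 0.72, under the 3′ minus 5′ covariate; none of these genes was called on day 12 in any of these fits. With no array-set term, that term as a random block and only the day 12 arrays, in this order, STAR gave -0.0243, -0.026 and -0.0243, HSD3B1 -0.0043, -0.0139 and -0.0043, VEGFA 0.0293, 0.0320 and 0.0293, PTGS2 0.105, 0.115 and 0.105, and CDH1 0.0855, 0.0969 and 0.0855. In the larger set only, STAR gave -0.104, MX2 -0.0325, PTGS2 0.0015, ABCG8 -0.0113, F2RL1 0.0776 and CDH1 0.0970. Without the day 14 non-pregnant arrays STAR gave -0.0670 and CDH1 0.0146, and PTGS2 0.0640. With the 3′ minus 5′ covariate PTGER2 gave 0.0301, ABCC3 -0.0753, CCL2 -0.0330, IGF1R -0.0449, AVPR1A -0.262 and PTGES -0.0469. With 1 array left out the ranges were -0.106 to 0.205 for ABCC3, -0.0113 to 0.0694 for ABCG8, -0.184 to 0.0970 for CDH1, -0.229 to 0.0364 for CRYAB, -0.458 to 0.0776 for F2RL1, -0.637 to 0.370 for ISG15, -0.0929 to 0.285 for MX2, -0.239 to 0.112 for PTGER2, -0.109 to 0.0640 for PTGS2, -0.431 to 0.0427 for RSAD2, -0.104 to 0.0925 for STAR, -0.215 to 0.101 for USP18 and -0.212 to 0.203 for VEGFA.

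Of 36 list medians 13 changed sign under at least 1 setting that left out no single array, 9 with the 3′ minus 5′ covariate (immediate early genes -0.19, cytokines and chemokines -0.08) and 7 in the larger set only (macrophages 0.02, cell division 0.06, matrix remodelling 0.02).

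The number of arrays, 3 a group, limited the precision. The day 12 pregnant and non-pregnant groups were unequally divided between the array sets, and the 3′ minus 5′ difference separated them. With it as a covariate the smallest limma adjusted p was 0.955, and 1098 probe sets had an unadjusted p under 0.05. Because the covariate separated the day 12 groups, a fit that holds it cannot tell RNA quality and pregnancy apart. This limit applies to every day 12 value given with that covariate.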

Other observations

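Several gene groups of the day 12 glands have not been described above. Among 23 genes of cell death and survival 15 lay above 0 and 5 were higher without overlap, against 11.3% of all genes, with 1 lower. The pro-apoptotic BAX, BAK1 and CASP9 gave 0.25 ± 0.12, 0.22 ± 0.12 and 0.17 ± 0.092, and BIRC3, an inhibitor of cell death, gave -0.54 ± 0.16 (limma adjusted p = 0.473). BIRC3 read 6.06, 6.12 and 6.22 in pregnant and 6.58, 6.90 and 6.72 in non-pregnant ewes, and 1 of its 2 probe sets lay below 0. The cytokine IL18 read 6.17, 6.40 and 6.23 against 6.58, 6.96 and 6.52 (-0.39 ± 0.13, limma adjusted p = 0.545), and the chemokine CCL8 gave 0.37 ± 0.15.

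In the unfolded protein response SDF2L1, an endoplasmic reticulum chaperone partner, gave 0.32 ± 0.089 and EIF2AK3, the stress kinase PERK, gave -0.70 ± 0.24, while 12 of 19 genes lay above 0. HADHA, an enzyme of fatty acid oxidation in mitochondria, read 9.22, 9.39 and 9.32 against 9.05, 9.05 and 9.00 (0.32 ± 0.10, limma adjusted p = 0.533), and HK1, a hexokinase, gave 0.30 ± 0.10. Markers of white blood cells showed little: macrophage markers had 5 of 13 above 0, T and NK cell markers 7 of 18 and neutrophil and eosinophil markers 7 of 9, with 0 genes without overlap in these 3 lists. B cell and plasma cell markers had 3 of 7 above 0, with 1 higher and 1 lower without overlap. Red blood cell markers had 5 of 7 above 0, 2 of them higher without overlap, and list means of 4.06 to 4.19 in pregnant and 3.87 to 4.02 in non-pregnant glands. Of these 7 markers 3 lay among the dimmest 25% of probe sets. The part of blood content in any difference was not tested. Of 31 cell division genes 12 lay above 0 and 1 was lower without overlap.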
